A study of Mus musculus with 15 samples.

Results

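The genes described here are 2 metallothioneins, Mt1 and Mt2, and 8 acute-phase genes, Serpina3n, Orm1, Orm3, Lcn2, Saa3, Hp, Steap4 and Cebpd, together 10 of the 22180 genes measured. They were chosen by name, with earlier results of these arrays known, and a gene's probe set was selected on its mean intensity over the 15 arrays. Each of the 10 has exactly 1 probe set that names it alone, so the intensities decided nothing for them. All 10 were kept, since no filter on low values was applied.

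RNA of whole aortic segments from DBA/2NCrl mice, an inbred strain that readily calcifies its soft tissues, was hybridised to 15 arrays. Feeding began at an age of 8 weeks and lasted 5 days. Each kg of the high-phosphate food (HPD) held 20.2 g of phosphorus, against 7.0 g in the chow of the controls (SCD). The groups were abdominal aorta on HPD (4 arrays), abdominal aorta on SCD (4 arrays), thoracic aorta on HPD (3 arrays) and thoracic aorta on SCD (4 arrays). The submitters call the arrays of a group biological replicates. How many mice stand behind an array, their sex, and whether the same mice gave both segments are not given in the sources used here. Precision throughout is limited by how many arrays there are.

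Metallothioneins are small proteins rich in cysteine that bind zinc and copper. Their genes are switched on by metals through the factor MTF1, and also by glucocorticoids and by inflammatory cytokines. Acute-phase genes encode plasma and tissue proteins whose output shifts in infection, injury and stress, under interleukin-6, interleukin-1, glucocorticoids and factors of the C/EBP family. The liver is the main source of most of them, but fat, macrophages, mesothelium and the vessel wall make some as well. Aortic samples carry perivascular fat and can carry neighbouring tissue.

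Promoter windows of 300 bases, from 250 before to 50 after the transcript start, were available from RefSeq (GRCm38.p6, the C57BL/6J reference, not the DBA/2NCrl genome of these mice) for 7 of the 10 genes. These were Mt1, Mt2, Serpina3n, Orm3, Lcn2, Saa3 and Steap4. Each window sits at the start of a particular transcript. For Mt1, Orm3 and Saa3 that start lies inside the gene span given below, so it is not the outermost start of the gene. The windows of Mt1 and Mt2 are shown because both genes were higher on HPD in both segments. Capitals mark the core of the metal response element, TGCACNC or TGCGCNC, searched on both strands.
Mt1 promoter, chr8:94178839-94179138, plus strand: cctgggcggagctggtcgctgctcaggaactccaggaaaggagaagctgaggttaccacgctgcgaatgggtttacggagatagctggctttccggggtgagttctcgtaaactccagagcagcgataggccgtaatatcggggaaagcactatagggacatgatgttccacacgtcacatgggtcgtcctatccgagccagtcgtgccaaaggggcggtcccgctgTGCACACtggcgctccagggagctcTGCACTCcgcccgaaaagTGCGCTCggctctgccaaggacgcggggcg
Mt2 promoter, chr8:94172368-94172667, plus strand: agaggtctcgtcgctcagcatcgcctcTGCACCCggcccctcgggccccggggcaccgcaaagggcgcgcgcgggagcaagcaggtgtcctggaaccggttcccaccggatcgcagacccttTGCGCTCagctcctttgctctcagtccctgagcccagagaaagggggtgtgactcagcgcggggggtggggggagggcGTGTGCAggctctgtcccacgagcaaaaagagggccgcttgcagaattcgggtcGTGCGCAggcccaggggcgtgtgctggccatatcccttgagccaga

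The core was found at 3 places in the Mt1 window and at 4 in the Mt2 window, against 1 in Orm3 and 0 in the windows of the other 4 genes. Of 32851 mouse promoter windows of the same length 25.7% held it at least once, so such a match by itself is common. The full palindromic glucocorticoid response element was in none of the 7 windows and in 0.00913% of all windows. A match describes letters only, and the absence of a match says nothing about sites outside the window.

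The windows of Orm3 and Saa3 are shown because these genes had the largest differences between aortic segments on HPD among those with a window. Capitals mark TTNNGCAA, a short form of the C/EBP motif, on either strand.
Orm3 promoter, chr4:63355908-63356207, plus strand: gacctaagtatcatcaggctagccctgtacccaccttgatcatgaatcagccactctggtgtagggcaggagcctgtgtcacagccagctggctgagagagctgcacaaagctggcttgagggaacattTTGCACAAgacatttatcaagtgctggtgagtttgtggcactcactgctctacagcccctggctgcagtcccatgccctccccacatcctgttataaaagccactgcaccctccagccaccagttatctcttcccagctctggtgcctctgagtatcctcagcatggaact
Saa3 promoter, chr7:46715627-46715926, minus strand: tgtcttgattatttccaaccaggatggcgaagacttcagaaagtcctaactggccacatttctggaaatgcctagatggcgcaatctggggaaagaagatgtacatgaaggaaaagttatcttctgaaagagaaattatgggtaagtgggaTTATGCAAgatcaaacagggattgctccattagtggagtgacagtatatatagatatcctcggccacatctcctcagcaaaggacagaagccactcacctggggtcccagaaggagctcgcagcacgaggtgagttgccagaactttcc

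This motif occurred 1 time each in the windows of Mt2, Orm3, Lcn2, Saa3 and Steap4 and was not found in those of Mt1 and Serpina3n. It occurred in 10.8% of all windows. In the Mt2 window it starts 12 bases before the transcript start and does not overlap the metal response cores.

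Several arrays had high levels of marker genes of other tissues. Smooth muscle markers were high in every array, with a mean of 7 genes between 8.30 and 9.71 on the log2 scale. The mean of 14 hepatocyte genes was 7.52 and 9.73 in abdominal HPD arrays 3 and 4 and 6.18 in thoracic SCD array 4. It lay between 5.15 and 5.71 in the other 12 arrays. All 14 hepatocyte genes had their highest value in abdominal HPD array 4, where albumin (Alb) reached 12.36. Neutrophil markers were highest in abdominal SCD array 2, with a mean of 7.17 over 13 genes. The next highest were abdominal HPD arrays 1 and 2, at 6.48 and 6.47. The mean of 13 lymphocyte genes was 8.19, 8.21 and 7.59 in abdominal HPD arrays 1, 2 and 4. It was 7.28 and 7.95 in abdominal SCD arrays 2 and 4, and none of the others passed 6.12. Adrenal cortex markers had a mean of 5.61 over 7 genes in abdominal HPD array 2, against 4.72 to 5.01 in the other arrays. Star, Cyp11b1 and Hsd3b1 stood out there, at 7.58, 6.67 and 5.40, while the rest of that list stayed close to the other arrays. The abdominal diet change of each of the 10 genes is also given without HPD arrays 3 and 4. That fit keeps HPD arrays 1 and 2 with their lymphocyte, neutrophil and adrenal markers.

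Both metallothioneins rose on HPD in both segments, Mt2 more than 3-fold. Serpina3n and Cebpd rose in the abdominal segment, and Orm3 fell in both. In the abdominal segment 4 of the 10 genes rose and 1 fell, where 1.95% of all genes rose and 5.06% fell, 7.01% together (limma, Benjamini-Hochberg adjusted p under 0.05 over 22180 genes, two-sided). In the thoracic segment 2 rose and 1 fell, against 1.39% and 1.08% of all genes, 2.47% together. The abdominal diet groups did not overlap for 4 genes that were higher and 2 that were lower on HPD, against 4.12% and 7.75% of all genes, 11.9% together. The thoracic groups did not overlap for 6 that were higher and 1 that was lower, against 7.09% and 6.67%, 13.8% together. The genes were listed with earlier results of these data known, so these shares describe the list and are not an independent test of it. The median change of the 10 genes was 0.57 in the abdominal and 0.90 in the thoracic segment, where the median over all genes was -0.008 and -0.011.

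**Figure D1:**
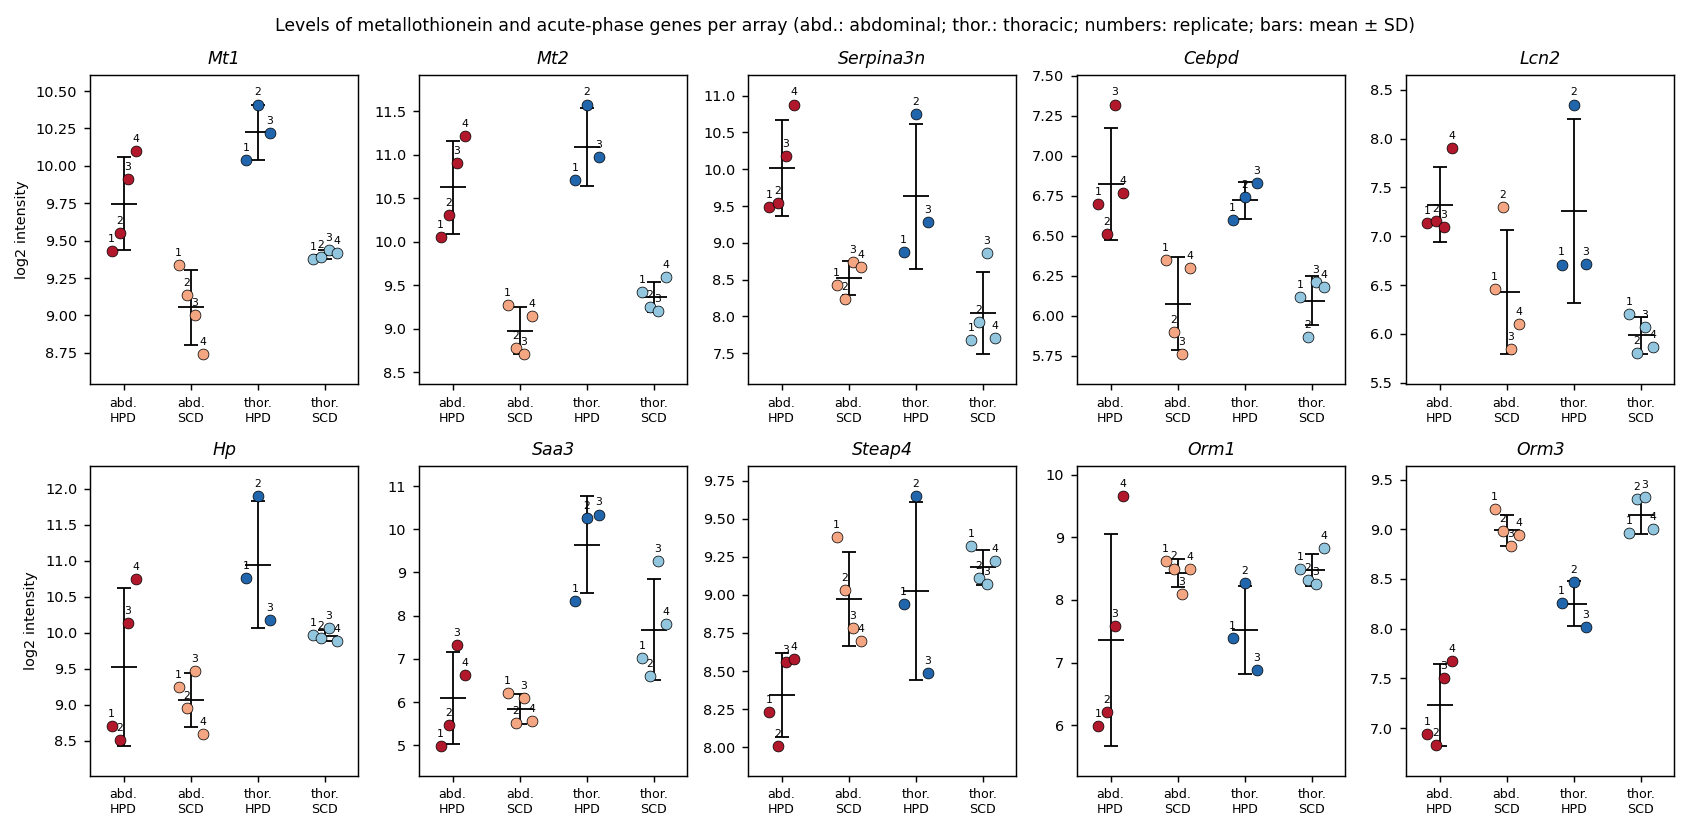
Log2 intensity (y axis) of each of the 10 genes in every array, by segment and diet (x axis), with replicate numbers beside the points and bars for the mean ± SD of a group. Mt2 is above 10 in all 7 HPD arrays and below 9.60 in all 8 SCD arrays, and Orm1 spreads from 5.99 to 9.66 within the abdominal HPD group.

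Mt2 (probe set 17503937, GRCm38 chromosome 8, 94172618 to 94173567) had 10.06, 10.31, 10.91 and 11.22 in the abdominal HPD arrays 1 to 4, against 9.27, 8.78, 8.71 and 9.15 in the abdominal SCD arrays. It had 10.71, 11.58 and 10.98 in the thoracic HPD arrays, against 9.42, 9.25, 9.20 and 9.59 in the thoracic SCD arrays. Every HPD array lay above every SCD array, across both segments. The rise was 3.14-fold in the abdominal segment (1.65 ± 0.233, log2 change ± SE, adjusted p = 0.000474) and 3.31-fold in the thoracic segment (1.73 ± 0.251, adjusted p = 0.0024). When HPD arrays 3 and 4 were left out, its abdominal change was 1.21 ± 0.212 (adjusted p = 0.00439).

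Mt1 (probe set 17503942, chromosome 8, 94178883 to 94180327), the neighbour of Mt2, had 9.43, 9.55, 9.91 and 10.10 in the abdominal HPD arrays, against 9.34, 9.14, 9.0 and 8.74 in the abdominal SCD arrays. It had 10.04, 10.41 and 10.22 in the thoracic HPD arrays, against 9.38, 9.39, 9.44 and 9.42 in the thoracic SCD arrays. The groups did not overlap in either segment, though abdominal HPD array 1 was level with the thoracic SCD arrays. Mt1 rose 1.61-fold in the abdominal segment (0.69 ± 0.143, adjusted p = 0.00758) and 1.76-fold in the thoracic one (0.82 ± 0.154, adjusted p = 0.0123). Its abdominal change without HPD arrays 3 and 4 was 0.43 ± 0.135 and no longer passed the threshold (adjusted p = 0.0684). Without thoracic HPD array 2 the thoracic change of Mt1 missed it as well (adjusted p = 0.0652). The Mt1 and Mt2 transcripts are alike in sequence, and how far their probes cross-react is not known here.

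Of 21 measured genes of zinc handling and other metallothioneins, 0 were called in either segment, and their median change was -0.01 and 0.02. The shares of all genes called were 7.01% in the abdominal and 2.47% in the thoracic segment. Mtf1, the metal-sensing factor, had a change of 0.01 ± 0.0833 in the abdominal and 0.01 ± 0.09 in the thoracic segment. Slc39a14, a zinc and iron importer that inflammation induces in liver, had changes of 0.59 ± 0.175 and 0.62 ± 0.189 (adjusted p = 0.0567 and 0.107). The brain metallothionein Mt3 had changes of 0.16 ± 0.0848 and -0.01 ± 0.0916 (adjusted p = 0.321 and 0.984).

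Serpina3n, a secreted inhibitor of serine proteases (probe set 17278328, chromosome 12, 104406646 to 104414334), had 9.48, 9.54, 10.18 and 10.88 in the abdominal HPD arrays, against 8.43, 8.23, 8.74 and 8.67 in the abdominal SCD arrays. It had 8.87, 10.75 and 9.28 in the thoracic HPD arrays, against 7.68, 7.92, 8.86 and 7.70 in the thoracic SCD arrays. The groups did not overlap in either segment, but in the thoracic segment they nearly met, at HPD array 1 and SCD array 3. In the abdominal segment Serpina3n rose 2.84-fold (1.5 ± 0.384, adjusted p = 0.0263). The thoracic change was about as large, 1.60 ± 0.415, and narrowly missed the threshold (adjusted p = 0.0574). The abdominal change without HPD arrays 3 and 4 was 1.00 ± 0.418 (adjusted p = 0.176). It also missed the threshold when abdominal HPD array 4, abdominal SCD array 1 or abdominal SCD array 2 was left out (adjusted p up to 0.0888).

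Cebpd, which encodes the transcription factor C/EBP delta (probe set 17323297, chromosome 16, 15887286 to 15889545), had 6.70, 6.51, 7.32 and 6.77 in the abdominal HPD arrays, against 6.35, 5.90, 5.76 and 6.30 in the abdominal SCD arrays. It had 6.60, 6.74 and 6.83 in the thoracic HPD arrays, against 6.12, 5.87, 6.21 and 6.18 in the thoracic SCD arrays. As with Mt2, all 7 HPD arrays lay above all 8 SCD arrays, here by a narrow margin. The abdominal rise was 1.68-fold (0.75 ± 0.164, adjusted p = 0.0111) and the thoracic change 0.63 ± 0.177 (adjusted p = 0.0801). With HPD arrays 3 and 4 left out, Cebpd had an abdominal change of 0.53 ± 0.161 (adjusted p = 0.0622).

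Of 11 measured relatives of Serpina3n, Steap4 and Cebpd, 0 were called in either segment, where 7.01% and 2.47% of all genes were. Cebpb and Cebpa, which encode the C/EBP factors beta and alpha, had abdominal changes of -0.55 ± 0.164 and -0.72 ± 0.229 (adjusted p = 0.0549 and 0.0777).

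Lcn2, a lipocalin that binds bacterial siderophores and is abundant in neutrophils (probe set 17383892, chromosome 2, 32384637 to 32387739), had 7.14, 7.16, 7.09 and 7.90 in the abdominal HPD arrays, against 6.46, 7.30, 5.84 and 6.10 in the abdominal SCD arrays. It had 6.71, 8.35 and 6.72 in the thoracic HPD arrays, against 6.20, 5.80, 6.07 and 5.86 in the thoracic SCD arrays. The abdominal groups overlapped through SCD array 2, the array with the highest neutrophil markers, and the thoracic groups did not overlap. Its changes were 0.90 ± 0.35 and 1.28 ± 0.378, and neither passed the test (adjusted p = 0.154 and 0.0963). Without abdominal SCD array 2 the abdominal change was 1.19 and Lcn2 was called (adjusted p = 0.0497). With the neutrophil mean as a covariate it was 0.78 ± 0.326 (adjusted p = 0.205). With HPD arrays 3 and 4 left out, it was 0.73 ± 0.424 (adjusted p = 0.365).

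Orm3, which encodes an orosomucoid (probe set 17414738, chromosome 4, 63356069 to 63359506), moved the other way. Orosomucoids are plasma lipocalins that carry drugs and other small molecules. Orm3 had 6.94, 6.83, 7.50 and 7.67 in the abdominal HPD arrays, against 9.20, 8.98, 8.83 and 8.94 in the abdominal SCD arrays. It had 8.26, 8.47 and 8.02 in the thoracic HPD arrays, against 8.96, 9.30, 9.32 and 9.0 in the thoracic SCD arrays. All 7 HPD arrays lay below all 8 SCD arrays, and the abdominal HPD arrays lay below the thoracic HPD arrays. Orm3 fell by 1.75 ± 0.169 on the log2 scale in the abdominal segment (adjusted p = 4.13e-05). In the thoracic segment it fell by 0.89 ± 0.183 (adjusted p = 0.0188). The thoracic call ended without HPD array 3 or without SCD array 2 (adjusted p up to 0.094). Its abdominal change was -2.10 ± 0.141 without HPD arrays 3 and 4 (adjusted p = 2.41e-05).

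Brown adipocyte markers were also lower on HPD in both segments. The mean of 8 brown adipocyte genes lay between 7.27 and 7.90 in the abdominal HPD arrays, against 9.07 to 9.53 in the abdominal SCD arrays. In the thoracic arrays it lay between 8.15 and 8.84 on HPD, against 9.46 to 9.77 on SCD. All 8 of these genes fell in the abdominal segment and 5 in the thoracic one, where 5.06% and 1.08% of all genes fell. For 9 general adipocyte genes the mean lay between 8.73 and 9.07 on HPD and between 9.45 and 9.85 on SCD in the abdominal segment, where 5 of them fell. In the thoracic segment the diets overlapped, at 9.15 to 9.54 on HPD and 9.51 to 9.78 on SCD, and 1 of the 9 fell. Of 6 fibroblast genes 4 fell in the abdominal and 0 in the thoracic segment. In bulk tissue, fewer cells of a type and less RNA per cell cannot be told apart. With the adipocyte and brown adipocyte means as covariates none of the 10 genes was called in either segment. The share of all genes called in that fit was not counted. The brown adipocyte mean separated the diets in both segments, so diet and these covariates cannot be fully told apart. With them the change of Mt2 was 1.97 ± 0.781 in the abdominal and 1.77 ± 0.553 in the thoracic segment (adjusted p = 0.575 and 0.334). Its SEs without them were 0.233 and 0.251. The change of Orm3 with them was -0.93 ± 0.501 and -0.51 ± 0.355 (adjusted p = 0.694 and 0.739).

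Orm1 (probe set 17414729, chromosome 4, 63344556 to 63348163), the neighbouring orosomucoid gene, had the widest abdominal HPD group of the 10 genes. It had 5.99, 6.21, 7.58 and 9.66 in the abdominal HPD arrays, against 8.62, 8.50, 8.10 and 8.49 in the abdominal SCD arrays. It had 7.39, 8.27 and 6.88 in the thoracic HPD arrays, against 8.49, 8.32, 8.26 and 8.82 in the thoracic SCD arrays. Within the abdominal HPD group the 4 arrays had the same order by Orm1 as by the hepatocyte mean, and array 4 exceeded every SCD array. Mt1, Mt2 and Serpina3n also had this order. With the hepatocyte mean as a covariate the abdominal change was 0.46 ± 0.132 for Mt1 (adjusted p = 0.0604) and 1.24 ± 0.193 for Mt2 (adjusted p = 0.00245). It was 1.06 ± 0.409 for Serpina3n (adjusted p = 0.175) and 0.64 ± 0.191 for Cebpd (adjusted p = 0.0777). Of these genes only Mt2 kept its call. Whether hepatocytes supplied these transcripts was not tested. With all arrays the abdominal change of Orm1 was -1.07 ± 0.577 and did not pass the test (adjusted p = 0.33). Without abdominal HPD arrays 3 and 4 Orm1 fell by 2.33 ± 0.281 (adjusted p = 0.000646), and with the hepatocyte mean as a covariate by 2.36 ± 0.269 (adjusted p = 0.00046). The thoracic change was -0.96 ± 0.623 (adjusted p = 0.575). Hepatocyte means were 5.37 to 5.46 in the thoracic HPD arrays and 5.26 to 6.18 in the SCD arrays, of which array 4 was highest in both this mean and Orm1. With the hepatocyte mean as a covariate the thoracic change was -0.79 ± 0.247 (adjusted p = 0.123). Without the 3 arrays with hepatocyte markers it was -0.84 ± 0.262 (adjusted p = 0.157). Orm1, Orm2 and Orm3 are close copies, and how far their probes cross-react is not known here.

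**Figure D2:**
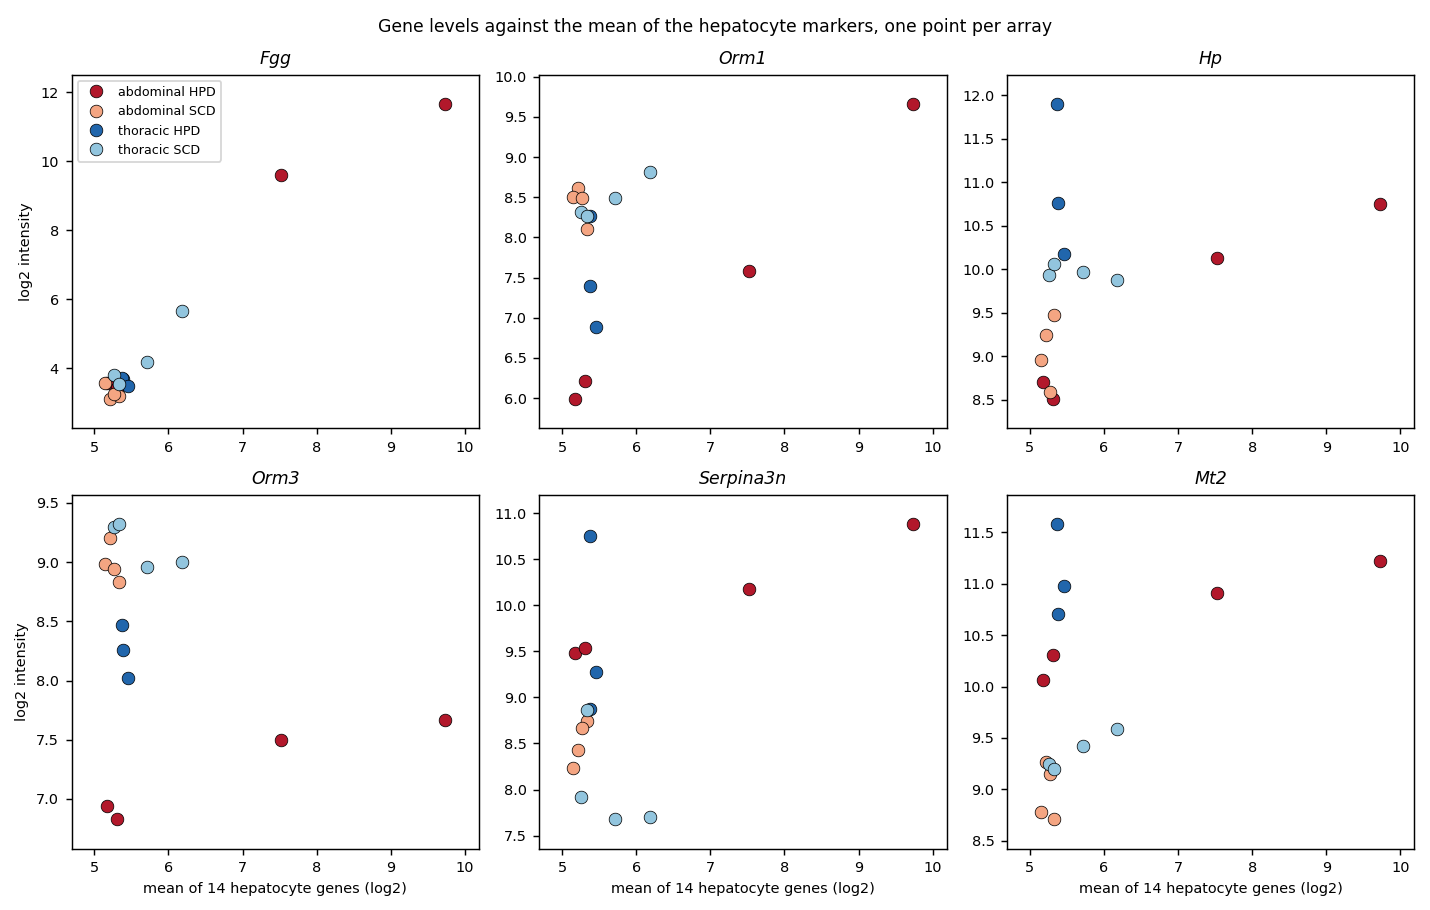
Log2 intensity (y axis) of the fibrinogen gene Fgg and of 5 of the 10 genes against the mean log2 intensity of 14 hepatocyte genes (x axis), with a point for each of the 15 arrays coloured by group. Abdominal HPD arrays 3 and 4 stand to the right at 7.52 and 9.73, where Fgg reaches 9.61 and 11.66. Mt2 is high in HPD arrays at both ends of the axis and rises along it within the abdominal HPD group.

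Hp, which encodes haptoglobin, the plasma protein that captures free haemoglobin (probe set 17512809, chromosome 8, 109575128 to 109579172), showed a similar split. It had 8.70, 8.51, 10.13 and 10.75 in the abdominal HPD arrays, against 9.24, 8.96, 9.47 and 8.59 in the abdominal SCD arrays. It had 10.76, 11.90 and 10.17 in the thoracic HPD arrays, against 9.97, 9.93, 10.06 and 9.88 in the thoracic SCD arrays. In the abdominal segment the HPD arrays lay partly below and partly above the SCD arrays, and in the thoracic segment all HPD arrays lay above. The abdominal change was 0.46 ± 0.435 with all arrays (adjusted p = 0.622) and -0.46 ± 0.341 without HPD arrays 3 and 4 (adjusted p = 0.505). The thoracic change was 0.99 ± 0.47 (adjusted p = 0.371).

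Steap4, a metalloreductase of iron and copper found in adipocytes (probe set 17434490, chromosome 5, 7960472 to 7982213), had 8.23, 8.01, 8.56 and 8.58 in the abdominal HPD arrays, against 9.38, 9.03, 8.78 and 8.70 in the abdominal SCD arrays. It had 8.94, 9.65 and 8.49 in the thoracic HPD arrays, against 9.32, 9.11, 9.07 and 9.22 in the thoracic SCD arrays. The abdominal groups did not overlap, while the thoracic HPD arrays lay on both sides of the SCD arrays. The changes were -0.63 ± 0.208 and -0.15 ± 0.225 (adjusted p = 0.0908 and 0.861). Steap4 had an abdominal change of -0.85 ± 0.247 without HPD arrays 3 and 4 (adjusted p = 0.0518).

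Saa3, the mouse serum amyloid A made outside the liver (probe set 17491193, chromosome 7, 46711998 to 46719615), had the widest range of the 10 genes, 5.35 on the log2 scale. It had 4.99, 5.46, 7.31 and 6.63 in the abdominal HPD arrays, against 6.20, 5.52, 6.09 and 5.56 in the abdominal SCD arrays. It had 8.34, 10.25 and 10.34 in the thoracic HPD arrays, against 7.03, 6.60, 9.26 and 7.80 in the thoracic SCD arrays. The diets overlapped in both segments, the thoracic ones through SCD array 3. The changes were 0.26 ± 0.593 and 1.97 ± 0.641 (adjusted p = 0.865 and 0.135). The abdominal HPD values were highest in arrays 3 and 4, and without these the abdominal change had the other sign, -0.61 ± 0.637 (adjusted p = 0.671). Without thoracic SCD array 3, the thoracic change of Saa3 was 2.63 and passed the test (adjusted p = 0.0402).

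**Figure D3:**
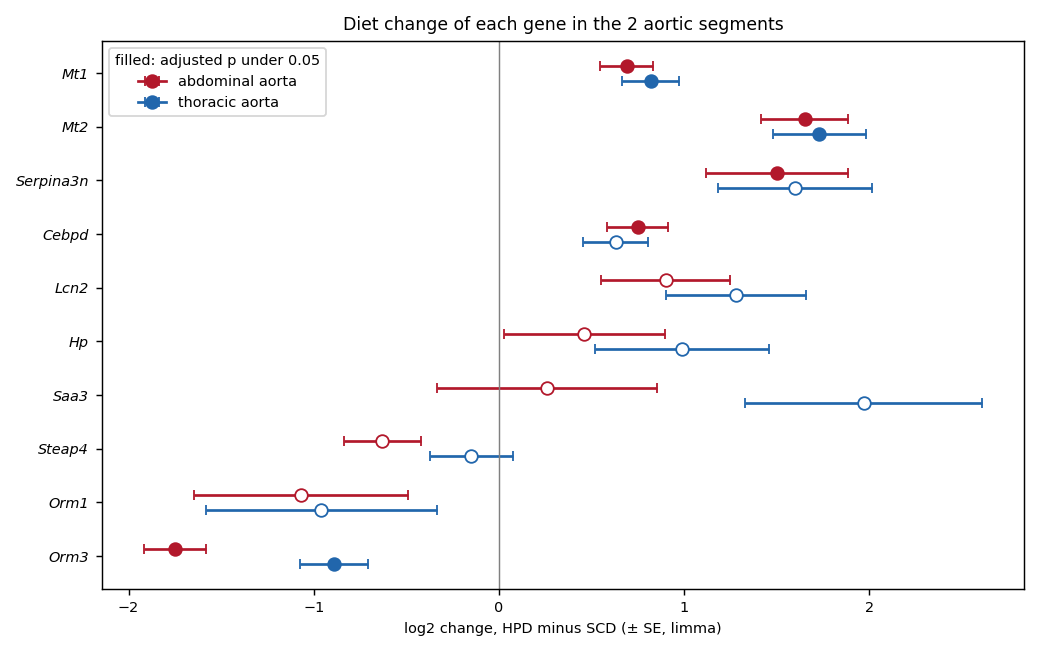
Log2 change on HPD relative to SCD with its SE (x axis) for each gene (y axis), in the abdominal (upper symbols) and thoracic segment, with filled symbols for an adjusted p under 0.05. Mt1 and Mt2 have filled symbols above 0 and Orm3 below 0 in both segments.

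Without abdominal HPD arrays 3 and 4, 3 of the 10 genes were called in the abdominal comparison in place of 5. Mt2 rose and Orm1 and Orm3 fell, against 3.16% of all genes that rose and 4.65% that fell in that fit, 7.81% together. The thoracic count was 5 in that fit, 4 higher and 1 lower, against 1.42% and 1.12% of all genes, 2.54% together. Serpina3n (1.60 ± 0.369, adjusted p = 0.0369) and Cebpd (0.63 ± 0.142, adjusted p = 0.0339) were then called in the thoracic segment too, with unchanged sizes and smaller SEs, since all groups share 1 estimate of the spread.

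**Figure D4:**
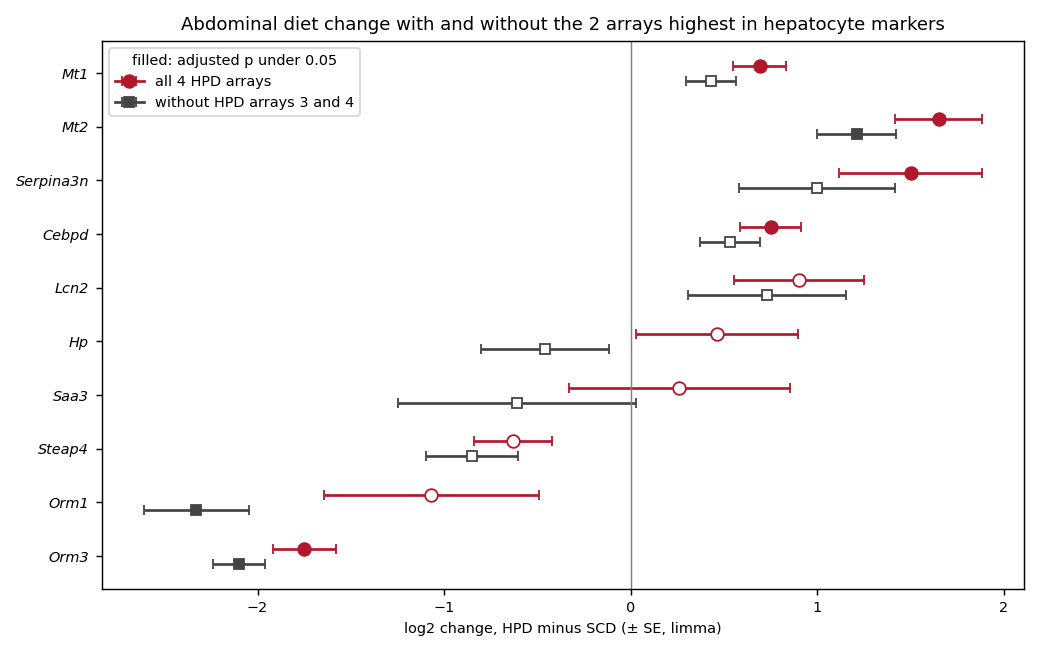
Abdominal log2 change on HPD relative to SCD with its SE (x axis) for each gene (y axis), with all arrays (circles) and without the HPD arrays that had the highest hepatocyte markers (squares), filled for an adjusted p under 0.05. Orm1 is at -1.07 with all arrays and -2.33 without them, Hp is at 0.46 and -0.46 with neither passing the test, and Mt2 and Orm3 have filled symbols in both.

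Within each group many of the 10 genes peaked in the same array. In the abdominal HPD group 8 of 10 genes had their highest value in array 4 and the other 2, Saa3 and Cebpd, in array 3. In the thoracic HPD group 8 of 10 were highest in array 2, where the hepatocyte mean was 5.37. Its macrophage mean of 8.61 over 9 genes and its sympathetic mean of 6.24 over 8 genes were the highest of the thoracic arrays. In the SCD groups 7 of 10 were highest in abdominal array 1 and 6 of 10 in thoracic array 3. The part of these cells in the levels was not tested.

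Many plasma proteins of the acute phase are made mainly by the liver. Of 19 other measured acute-phase genes 14 had their highest value of all arrays in abdominal HPD array 4 and 5 in thoracic HPD array 2. The fibrinogen chain Fgg had 3.57, 3.43, 9.61 and 11.66 in the abdominal HPD arrays and 3.11 to 3.58 in the abdominal SCD arrays. In the thoracic arrays it had 3.49 to 3.71 on HPD and 3.55 to 5.65 on SCD. Saa2, a serum amyloid A of liver, had 3.56, 3.95, 6.64 and 10.67 in the abdominal HPD arrays and 3.21 to 3.91 in the abdominal SCD arrays. Neither was called in the abdominal comparison (adjusted p = 0.123 for Fgg and 0.18 for Saa2). The list had a median abdominal change of 1.07 with all arrays and 0.18 without HPD arrays 3 and 4.

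In each segment 2 of these 19 genes rose and 0 fell, and in both they were C4b and Cp. The shares of all genes that rose were 1.95% in the abdominal and 1.39% in the thoracic segment. The complement component C4b rose by 0.84 ± 0.171 in the abdominal and 0.77 ± 0.184 in the thoracic segment (adjusted p = 0.00656 and 0.0402). Ceruloplasmin (Cp), the copper protein of plasma, rose by 0.57 ± 0.127 and 0.55 ± 0.137 (adjusted p = 0.0127 and 0.0488). Without abdominal HPD arrays 3 and 4, 2 of the 19 rose in the abdominal segment, where 3.16% of all genes did. They were Itih3 (0.60 ± 0.125, adjusted p = 0.0112) and Orm2 (0.50 ± 0.139, adjusted p = 0.0442).

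Of 23 measured genes of interleukin-6, interleukin-1 and NF-kB signalling, 4 rose in the abdominal and 2 in the thoracic segment, and 0 fell. The shares of all genes that rose were 1.95% and 1.39%. Nfkbia, an inhibitor and target of NF-kB, rose by 0.56 ± 0.106 and 0.56 ± 0.115 (adjusted p = 0.00405 and 0.0188). Osmr, the receptor of oncostatin M, rose by 0.57 ± 0.14 and 0.68 ± 0.151 (adjusted p = 0.0208 and 0.0262). The interleukin-6 receptor chains Il6ra (0.64 ± 0.149, adjusted p = 0.0152) and Il6st (0.30 ± 0.0582, adjusted p = 0.00527) rose in the abdominal segment. The cytokine gene Il6 itself had group means between 3.57 and 3.93 and changes of -0.14 ± 0.109 and -0.19 ± 0.118 (adjusted p = 0.539 and 0.544). Socs3, a target and brake of this pathway, had changes of 0.46 ± 0.181 and 0.62 ± 0.195 (adjusted p = 0.166 and 0.122). In the abdominal segment 6 of the 23 rose once HPD arrays 3 and 4 were left out, Il1a, Jak1 and Jak2 among them. Osmr was then not called. The share of all genes that rose was 3.16% in that fit, against 1.95% with all arrays.

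Of 14 glucocorticoid response genes 8 rose and 2 fell in the abdominal segment, and 7 rose and 1 fell in the thoracic one. Of all genes 1.95% rose and 5.06% fell in the abdominal segment, and 1.39% rose and 1.08% fell in the thoracic one. The glucocorticoid list was known from earlier results of these data to respond. Errfi1, a brake on growth factor receptors, rose by 0.95 ± 0.209 and 1.01 ± 0.226 (adjusted p = 0.0113 and 0.0277). Zbtb16, a transcription factor induced by glucocorticoids, rose by 0.88 ± 0.203 and 1.14 ± 0.22 (adjusted p = 0.0154 and 0.0139). Nr3c1, the glucocorticoid receptor gene, fell by 0.32 ± 0.0831 and 0.37 ± 0.0898 (adjusted p = 0.0298 and 0.0445). Pdk4 was the other gene that fell in the abdominal segment, with 10.11 to 10.78 on HPD against 10.99 to 11.37 on SCD. In the abdominal segment without HPD arrays 3 and 4, 3 of the 14 rose, namely Fkbp5, Ddit4 and Sult1a1, where 3.16% of all genes rose. In that fit 7 rose in the thoracic segment and 0 fell in either. The calls of Nr3c1 were thus lost in both segments, and that of Pdk4 in the abdominal one.

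Whether the diet changed a gene more in the abdominal than in the thoracic segment was tested as the difference of the changes. By limma 0 of the 10 genes, and 0% of all genes, were called at an adjusted p under 0.05. The unadjusted p was under 0.05 for 1 gene. This was Orm3, with a difference of -0.85 ± 0.249 (limma, adjusted p = 0.858). For Saa3 the difference was -1.71 ± 0.874 (adjusted p = 0.879). For Mt1 and Mt2 it was -0.13 ± 0.21 and -0.07 ± 0.343 (adjusted p = 0.946 and 0.987). Leaving out abdominal HPD arrays 3 and 4 gave larger differences for these genes, again with 0 of the 10 called. The share of all genes called for the difference was not counted in that fit. The differences were then -0.38 ± 0.18 for Mt1 and -0.51 ± 0.282 for Mt2 (adjusted p = 0.528 and 0.611). For Orm3 and Saa3 they were -1.20 ± 0.188 and -2.58 ± 0.849 (adjusted p = 0.155 and 0.357), and for Orm1 and Hp -1.37 ± 0.375 and -1.45 ± 0.455 (adjusted p = 0.321 and 0.342). With all arrays Orm1 and Hp had differences of -0.11 ± 0.849 and -0.53 ± 0.64 (adjusted p = 0.992 and 0.928).

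The segments were then compared with each other on the same diet, with the same arrays as above. On HPD Saa3 was 11.7-fold lower in the abdominal than in the thoracic segment (-3.54 ± 0.641, adjusted p = 0.00246) and Orm3 2.02-fold lower (-1.01 ± 0.183, adjusted p = 0.00244). These 2 of 10 genes were called, both lower, where 6.25% of all genes were higher and 7.57% lower in the abdominal segment, 13.8% together. The same 2 did not overlap, against 10.1% of all genes higher and 13.7% lower, 23.8% together. Hp (-1.43 ± 0.47, adjusted p = 0.0568), Steap4 (-0.68 ± 0.225, adjusted p = 0.0578) and Mt1 (-0.48 ± 0.154, adjusted p = 0.0527) narrowly missed the threshold. Without abdominal HPD arrays 3 and 4, 7 of the 10 genes were called lower in the abdominal segment on HPD, against 7.81% of all genes, with 8.32% higher and 16.1% together. In that fit the difference was -4.42 ± 0.671 for Saa3 (adjusted p = 0.00124) and -1.36 ± 0.149 for Orm3 (adjusted p = 0.000206). The 5 added were Hp (-2.34 ± 0.36, adjusted p = 0.00128), Orm1 (-1.42 ± 0.297, adjusted p = 0.00597), Mt1 (-0.73 ± 0.142), Mt2 (-0.90 ± 0.223) and Steap4 (-0.91 ± 0.261).

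On SCD 0 of the 10 genes were called between segments by limma, where 4.78% of all genes were (3.02% higher, 1.76% lower), and 2 had an unadjusted p under 0.05, Mt1 and Saa3. Saa3 averaged 5.84 ± 0.35 in the abdominal and 7.67 ± 1.17 in the thoracic SCD arrays (SD, n = 4 each), a difference of -1.83 ± 0.593 (adjusted p = 0.0959). Hp averaged 9.07 ± 0.38 and 9.96 ± 0.07 (SD, n = 4 each), a difference of -0.89 ± 0.435 (adjusted p = 0.274). Mt1, Saa3 and Hp did not overlap between the segments on SCD, all lower in the abdominal segment, as was the case for 6.01% of all genes, with 5.97% higher and 12% together.

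**Figure D5:**
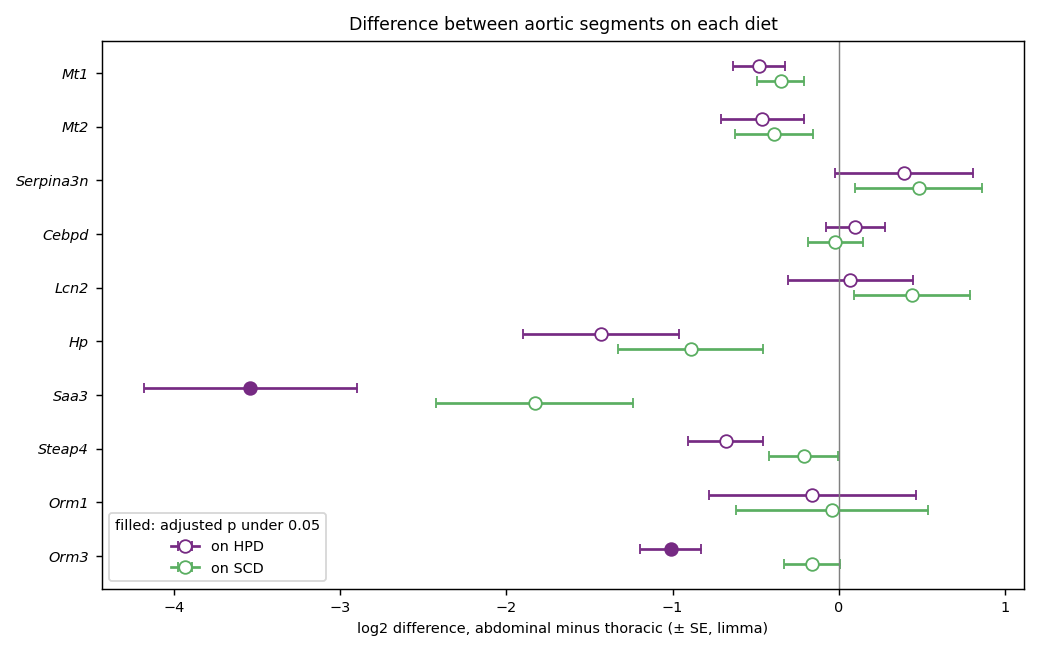
Log2 difference between the abdominal and the thoracic segment with its SE (x axis) for each gene (y axis), on HPD (upper symbols) and on SCD, with filled symbols for an adjusted p under 0.05. Saa3 has the largest differences, -3.54 on HPD and -1.83 on SCD, and only Saa3 and Orm3 on HPD are filled.

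Mesothelial markers also differed between the segments, as did other marker lists. On HPD 7 of 8 sympathetic and 11 of 13 lymphocyte genes were called higher in the abdominal segment. Called lower were 7 of 7 smooth muscle, 4 of 5 mesothelial, 5 of 8 brown adipocyte, 3 of 9 adipocyte and 3 of 6 fibroblast genes. Of all genes 6.25% were higher and 7.57% lower. The hepatocyte, neutrophil, macrophage, adrenal cortex and endothelial lists had 0 calls. The mean of 5 mesothelial genes lay between 5.39 and 6.14 in the abdominal HPD arrays and 5.17 and 5.96 in the abdominal SCD arrays. It lay between 6.51 and 7.03 in the thoracic HPD arrays and 6.14 and 6.83 in the thoracic SCD arrays. With this mean as a covariate the difference of Saa3 on HPD was -2.64 ± 1.02 and that of Orm3 -0.79 ± 0.296, and neither was called (adjusted p = 0.322 and 0.3). With the lymphocyte mean as a covariate they were -2.52 ± 0.806 and -0.73 ± 0.231 (adjusted p = 0.148 and 0.146). The SEs without a covariate were 0.641 and 0.183. The lymphocyte mean was 5.98 to 8.21 in the abdominal and 5.52 to 5.69 in the thoracic HPD arrays. Both means thus separated the segments on HPD, so segment and these covariates cannot be fully told apart. The share of all genes called in these fits was not counted.

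The genes whose levels ran most like those of the 10 over the 15 arrays were found by Pearson's r, given as a description. The arrays fall into 4 groups, so an r includes differences between the groups. For Mt2 these were the sulfotransferase Sult1a1 (r = 0.96), the aminopeptidase Lvrn (0.95) and the cytochrome P450 Cyp2b10 (0.95), and for Mt1 they were Tead1 (0.94), Pxmp2 (0.93) and Usp54 (0.93). Serpina3n ran with Acvr1b (0.93), Slc43a1 (0.92) and Slc7a8 (0.90), and Lcn2 with Lingo4 (0.89), Slc43a1 (0.89) and ceruloplasmin Cp (0.88). Cebpd ran with Gnl2 (0.93), Fam107a (0.91) and Slc43a3 (0.90).

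Orm3 ran with the collagen gene Col1a1, Bphl and the ATP synthase subunit Atp5k (0.97 each). Steap4 ran with Abhd5, a coactivator of fat lipolysis (0.96), Mtus1 and Atg10 (0.92 each). Orm1 was closest to the complement gene C8g (0.90), Akr1c14 (0.85) and the retinol carrier Rbp4 (0.85). Hp ran with Itih4 (0.95) and Lrg1 (0.89), also of the acute phase, and the macrophage receptor Vsig4 (0.89). Itih4 was highest in thoracic HPD array 2, at 11.89, against 10.73 in abdominal HPD array 4. Saa3 ran with Frzb (0.94), Dapk2 (0.94) and the lymphatic growth factor Vegfd (0.92).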

How the data were processed

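Gene expression was measured on 15 arrays of biotin-labelled RNA amplified with a NuGEN Applause system, per the labels' protocols. The deposited values are taken as log2 intensities, 1 per probe set and array. RMA and Partek are listed in the submitters' processing notes without versions or roles, and the log base was inferred from the values, 1.381 to 13.33, with array medians of 5.778 to 5.84. Build, detection calls and scan dates are not given in the sources used here, so signal over background is unknown. Of 41345 probe sets 23521 name exactly 1 gene, which gave 22180 genes with no filter on dim ones.

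Arrays were grouped by their titles. R 4.3.3 and limma 3.58.1 fitted 4 group means to all 15 arrays, with a trended variance prior and 11 residual degrees of freedom, with Benjamini-Hochberg adjustment over all genes and a threshold of 0.05, two-sided. Changes are HPD minus SCD, differences between segments are abdominal minus thoracic, and ± is SE for changes and SD for means. The members and lists were chosen with earlier results of these data known. The rule named all 10 genes, the 3 genes most alike to each, called members of the related lists and up to 4 others of each. Fat, liver, lymphocyte, neutrophil, macrophage, sympathetic, adrenal cortex, mesothelial, fibroblast, smooth muscle and endothelial marker lists were fixed beside them. Replicate numbers were not treated as pairs. The alternatives were another variance prior, a filter on dim genes (the lowest 30% by mean), array weights, median centring, quantile normalization, fits of only the groups compared, a replicate block, probe set means, marker covariates and left-out arrays. Covariates for mesothelial and neutrophil markers were added after seeing the data. The fit was tested on simulated data. Plots were drawn with matplotlib 3.10.9.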

Additional observations from a re-analysis of the deposited data

Results flagged for a closer look

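Lcn2 in abdominal HPD array 4, at 7.90, stood apart from the other 3 arrays of its group, which lay between 7.09 and 7.16. Its distance to the nearest was 0.918 of the range of the group, above Dixon's limit for 4 arrays. It was the only one among 30 sets of 4 arrays, 3 groups for each of 10 genes, and chance alone flags about 1 in 20. The same array had the highest hepatocyte mean, 9.73. With that mean as a covariate the abdominal change of Lcn2 was 0.68 ± 0.41 (limma, adjusted p = 0.415). Whether hepatocytes supplied the Lcn2 transcript of this array was not tested.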

How the results depend on the processing

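Of 1240 values of the 10 genes recomputed under the alternatives, 1152 kept their side of the threshold, 35 lost a call, 53 gained one and 0 called changes turned their direction. A further 85 uncalled values, counted among the 1152, changed sign. In the abdominal diet comparison the number of genes called, 5 with all arrays, was 6 with array weights (Steap4 added), 3 with only the groups compared, 3 with the hepatocyte mean as a covariate, 3 without HPD arrays 3 and 4, 3 without all 3 arrays with hepatocyte markers, 3 without the 5 arrays with lymphocyte markers and 0 with the fat covariates. In the thoracic comparison 3 became 6 with array weights, 5 with the lymphocyte covariate, 5 without abdominal HPD arrays 3 and 4 and 0 with the fat covariates. On HPD between segments 2 became 5 under each of the filter on dim genes, median centring and array weights. It became 7 with the hepatocyte covariate, 7 without abdominal HPD arrays 3 and 4 and 7 without the 3 arrays with hepatocyte markers. It was 0 with the fat, lymphocyte or mesothelial covariates and 0 without the 5 arrays with lymphocyte markers. That fit leaves 1 abdominal HPD and 2 abdominal SCD arrays. On SCD between segments 0 became 1 with only the groups compared (Hp) and 1 with the replicate block (Saa3). Leaving out each array in turn gave 4 to 5 genes in the abdominal, 2 to 5 in the thoracic, 2 to 5 in the HPD segment and 0 to 0 in the SCD segment comparison and in the difference of changes. For the difference of changes the fit of only the groups compared is the one reported. The causes of these moves were not tested, apart from the fewer genes or arrays that a setting itself leaves. The share of all genes called was counted for the main fit. Without abdominal HPD arrays 3 and 4 it was counted for the diet changes and for the segments on HPD. For the other settings it was not counted, so their counts cannot be set against all genes.

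Replicate numbers were not used as pairs, and whether same-numbered arrays share mice is not given. Deviations of same-numbered arrays from their group means correlated between -0.25 and 0.404. Between the segments they lay between 0.031 and 0.122 on HPD and between 0.03 and 0.069 on SCD. In none of the 6 pairs of groups was every correlation over 0.1, and shared mice cannot be told from these values. With the replicate block the counts were 5, 4, 0, 1 and 2 for the abdominal, thoracic, difference, SCD and HPD comparisons. The missing detection calls limit what can be said of dim genes.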
